A study of Mus musculus with 48 samples.

Results

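Adult pancreatic duct cells were set against the early progenitors of the pancreas, 4 arrays against 4 of the 48 arrays in the series. The duct cells came from mice of 8 to 12 weeks, and the progenitors were the Sox9 population of embryonic day E11.5. All 8 arrays were chosen by their titles alone, and both populations are listed as wild type on a CD-1 background, from the pancreas. The duct cells were sorted with an antibody to CD133 (the product of Prom1) after Ter119 and CD45 had been used to leave out erythroid cells and leukocytes. The progenitors were sorted by green fluorescence from the dorsal pancreas of embryos that carry a Sox9-eGFP reporter, pooled from many embryos for each array. That reporter outlasts the Sox9 protein, so some progeny that had already lost Sox9 are included, at a share that the methods call low. CD133 is not restricted to ducts, and the adult tissue was digested with collagenase where the embryonic tissue was digested with TrypLE. Age, sort and digestion all differ between the populations, so their parts in any difference cannot be told apart.

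The early pancreatic epithelium is a tree of dividing cells that will give rise to acinar, duct and endocrine cells, and it is held in that state by transcription factors such as Pdx1, Ptf1a and Sox9. Adult ducts keep Sox9 and carry digestive enzymes to the gut in a bicarbonate-rich fluid, made by chloride channels, bicarbonate transporters and carbonic anhydrases. Duct cells divide rarely, and they are the adult cell type that most resembles the embryonic epithelium in form.

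The values are RMA values on the log2 scale, relative brightness on the array with no count of molecules behind it, so a difference of 1 is a change of 2-fold. Array medians lay between 6.65 and 6.73 in duct cells and between 6.74 and 6.78 at E11.5, and between 50.1% and 51.4% of probes exceeded 100 on the linear scale (6.64 on the log2 scale). Below that level a probe is dim and the size of a difference is not exact, and above about 14 a probe may saturate. Arrays correlated at 0.977 to 0.989 within the duct cells, at 0.994 to 0.997 within the progenitors and at 0.854 to 0.875 between them, across all probes. The labels number the replicates but do not say whether they came from separate sorts, so each p measures only a spread between arrays. That spread was taken over all 48 arrays in 13 groups, so other cell types weigh in it. Krt19, for example, had an SE of 0.53, with SDs of 0.07 in duct cells and 0.2 at E11.5. The 4 arrays in each population limit the precision. The RNA came from sorted bulk cells, so fewer cells of a type and less RNA per cell cannot be told apart.

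A gene, read by its brightest probe that carries that gene alone, was called at an adjusted p under 0.05 (limma, Benjamini-Hochberg) with a difference of at least 1. Of 14484 genes tested, 2576 were higher in duct cells (17.8%) and 3610 were lower (24.9%), together 6186 (42.7%). The median difference over all genes was -0.20, and the arrays of the groups did not overlap for 72.2% of genes. Over the 32043 probes tested, 39.5% were called and 67.9% did not overlap. Large differences leaned the other way. At 16-fold or more, 411 genes were higher and 215 lower, and at 64-fold or more these were 124 and 43. Another 4352 genes (30%) had a 95% interval of the difference inside -1 to 1 with both means above 100, and are called alike within 2-fold.

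**Figure D1:**
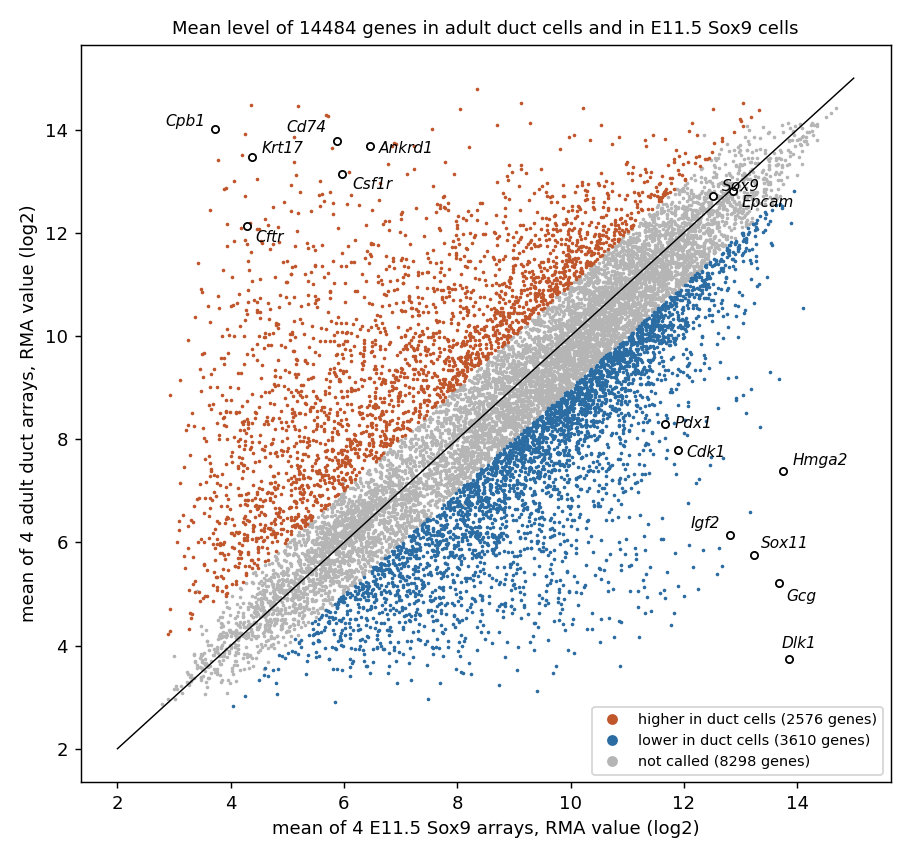
Mean RMA value (log2) of each of 14484 genes over 4 adult duct arrays (vertical axis) against the mean over 4 E11.5 Sox9 arrays (horizontal axis), coloured by call; the line marks equal means. The 411 genes that were at least 16-fold higher in duct cells fill the upper left, and 215 genes that were at least 16-fold lower fill the lower right.

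Dlk1 and Krt17 lay at opposite ends of this comparison. Dlk1, an imprinted gene for a Delta-like transmembrane protein of embryonic epithelia, had 3.54, 3.64, 3.74 and 4.02 in duct cells, against 13.75, 13.85, 13.93 and 13.91 at E11.5. Krt17, a keratin of basal and injured epithelia, had 13.37, 13.32, 13.64 and 13.55 in duct cells, against 4.35, 4.52, 4.29 and 4.34 at E11.5. Neither gene came near to an overlap. The differences were -10.12 for Dlk1 (SE 0.47, adjusted p = 5.7e-21) and 9.10 for Krt17 (SE 0.22, adjusted p = 1.8e-29), both from limma, and Dlk1 had the largest fall of all genes called. Each gene was dim in the population where it was low, so the size of either difference is not exact.

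The sorts can be checked on the same arrays. Prom1, which encodes CD133, had 12.86, 13.30, 13.24 and 12.96 in duct cells, against 12.29, 12.41, 12.25 and 12.23 at E11.5, and was bright in both. Sox9, the factor behind the reporter of the progenitors, had 13.02, 12.75, 12.61 and 12.47 in duct cells, against 12.41, 12.57, 12.58 and 12.49 at E11.5. Its difference was 0.20 with a 95% interval of -0.32 to 0.71, so the level was alike within 2-fold. Of the duct markers, Krt7, Krt19, Cftr and Muc1 were all bright in the duct arrays, while Spp1 was not analysed here. Of the progenitor markers, Pdx1, Ptf1a, Nkx6-1 and Cpa1 were all bright at E11.5. Cpa1 was bright in duct cells too, with 13.78, 13.95, 14.14 and 14.14 in duct cells and 13.09, 13.18, 13.14 and 13.19 at E11.5. Its arrays did not overlap, and the difference of 0.85 was not called (adjusted p = 0.39 in limma, with the spread taken over all 48 arrays).

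Markers of other cell types were read on the duct arrays. All 19 macrophage and leukocyte markers tested were higher in duct cells, where 17.8% of all genes were, with a median difference of 7.0. The mean of these markers was 12.27, 11.48, 11.05 and 12.04 on the duct arrays, against 5.37, 5.06, 4.96 and 5.06 at E11.5. Ptprc, which encodes the CD45 that the duct sort was meant to leave out, had 11.61, 10.21, 9.84 and 10.72 in duct cells, against 3.98, 3.49, 3.54 and 3.36 at E11.5. Csf1r, the receptor for macrophage colony-stimulating factor, had 13.53, 12.78, 12.76 and 13.50 in duct cells, against 6.22, 5.77, 6.12 and 5.74 at E11.5. The complement gene C1qb and the lysozyme gene Lyz1 were 8.98 and 9.63 higher and stand among the 15 largest rises. Lymphocyte markers had no such rise. Of 7 tested, the B cell gene Cd79b was higher (1.24) and the T cell gene Cd2 lower (-1.27, and -0.91 with no call without duct replicate 3). Each is 14.3% of the list, against 17.8% higher and 24.9% lower among all genes. Cd3e of T cells was dim in both, at a mean of 5.44 in duct cells and 4.99 at E11.5.

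Acinar enzymes showed the same direction. Of 21 tested, 19 were higher in duct cells (90.5%, against 17.8% of all genes) and none was lower, with a median difference of 6.45. Their mean was 13.19, 13.46, 13.61 and 13.84 on the duct arrays, against 7.58, 7.75, 7.40 and 7.58 at E11.5. Cpb1, which encodes a carboxypeptidase of pancreatic juice and had the largest rise of all, had 13.71, 13.90, 14.26 and 14.19 in duct cells, against 3.62, 3.97, 3.50 and 3.82 at E11.5 (difference 10.28, SE 1.19). Its SE comes from the fit over all 48 arrays, and the duct and E11.5 arrays lay far apart. Many enzyme genes are near copies of each other, so a probe may read more than 1 of them, and several values were near saturation. The acinar transcription factor gene Bhlha15 rose far less, with 7.81, 8.58, 9.62 and 9.90 in duct cells, against 7.39, 7.56, 7.27 and 7.23 at E11.5 (difference 1.62, adjusted p = 0.00025 in limma). Its duct value was lowest on replicate 1, like the mean of the enzymes.

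Endothelial markers were higher in duct cells for 10 of 14 (71.4%, against 17.8% of all genes). They were higher for 4 where a gene had to exceed 100 in at least 4 of the 8 arrays. Flt1, a receptor for vascular endothelial growth factor, had 8.96, 10.03, 8.65 and 9.12 in duct cells, against 4.95, 4.37, 4.31 and 4.50 at E11.5. Cdh5, which encodes the cadherin of endothelial junctions, was dim in both, at a mean of 4.36 in duct cells and 3.83 at E11.5. Erythroid markers had no call among 7, where 42.7% of all genes were called. Mesothelial markers had 5 higher of 7 (71.4%, against 17.8% of all genes, and 2 under that filter), among them Krt19, which ducts use too. Of 14 mesenchymal markers Postn was higher (2.50, and 3.26 without duct replicate 1). The collagen gene Col1a1 (-1.37) and its partner Col1a2 (-3.46) were lower. These are 7.14% higher and 14.3% lower, against 17.8% and 24.9% of all genes. The call for Col1a1 was lost without duct replicate 3 (-1.16), duct replicate 4 (-1.18) or E11.5 replicate 2 (-1.14). Of 7 neural crest and glia markers, 4 were lower (57.1%, against 24.9% of all genes) and 1 was higher (14.3%, against 17.8%). Tubb3 and Elavl4, genes of young neurons that endocrine precursors also use, fell by 4.30 and 4.04, as did the receptor gene Ret (-4.01) and the glial factor gene Sox10 (-1.63). The endothelin receptor gene Ednrb was higher by 5.87.

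**Figure D2:**
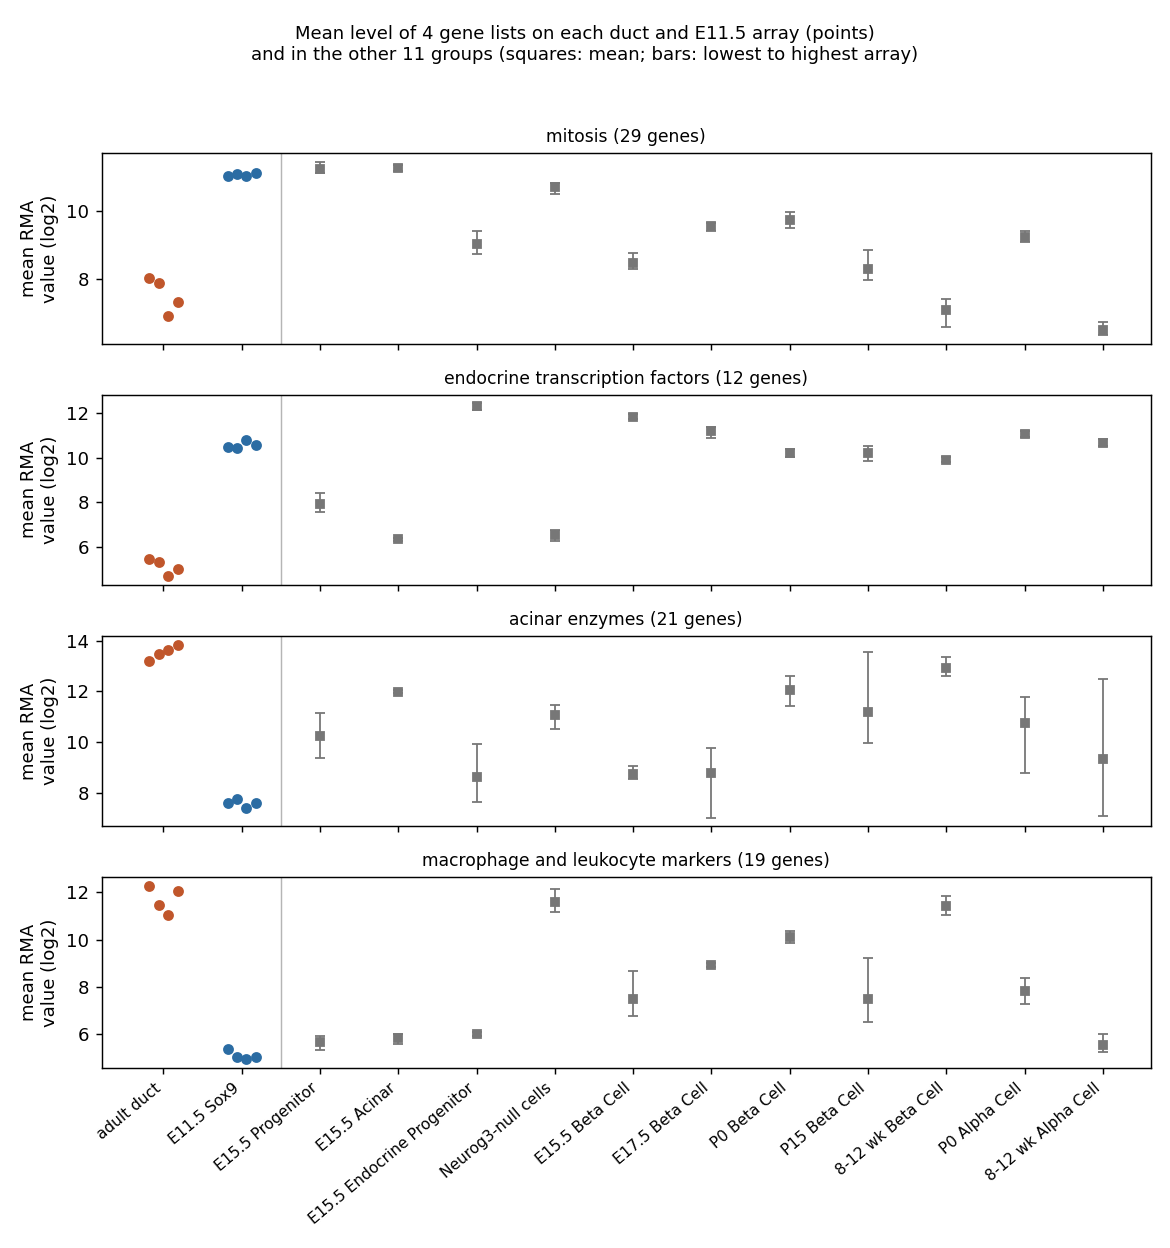
Mean RMA value (log2) of the genes of 4 lists on each of the 4 adult duct arrays and 4 E11.5 Sox9 arrays (points), and in the other 11 groups of the series (squares, mean of the arrays; bars, lowest to highest array). Macrophage markers and acinar enzymes are high in duct cells, and in beta cells of the same age at a mean of 11.43 and 12.93. Macrophage markers are also high in Neurog3-null cells, at 11.6. Mitosis genes are low in all 3 adult groups.

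These lists were bright in other sorts too, adult and younger. The mean of the macrophage markers was 11.43 in beta cells of the same age, and 5.57 in alpha cells. It was 11.6 in the E15.5 Neurog3-null cells and 10.12 in P0 beta cells, but 5.68 in E15.5 progenitors and 5.86 in E15.5 acinar cells. The mean of the acinar enzymes was 12.93 in those adult beta cells, 9.32 in the alpha cells and 11.98 in E15.5 acinar cells. In younger beta cells it was 12.05 at P0 and 11.18 at P15, but 8.74 at E15.5. The part of RNA from other cell types in the differences of other genes was not tested.

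The factors that mark the early pancreatic epithelium were described gene by gene. Among 26 tested, 10 were lower (38.5%, against 24.9% of all genes), 4 were higher (15.4%, against 17.8%) and 7 had an interval inside -1 to 1. The higher and alike shares were near those of all genes, and the median difference was -0.44, against -0.20 over all genes. The mean of the list was 9.58, 9.6, 9.58 and 9.26 on the duct arrays, against 10.55, 10.63, 10.60 and 10.66 at E11.5.

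**Figure D3:**
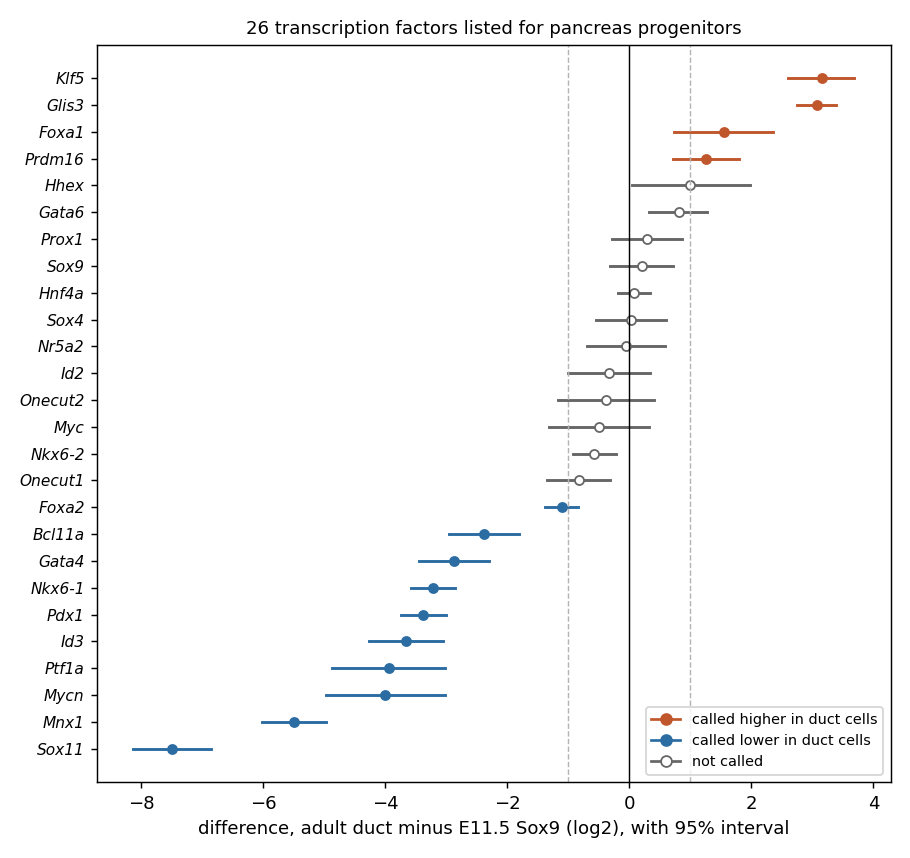
Difference, adult duct minus E11.5 Sox9 (log2, with its 95% interval from the limma fit), for 26 transcription factor genes of pancreatic progenitors; dashed lines mark -1 and 1. At the low end Sox11 has -7.49, at the high end Klf5 has 3.15, and 7 genes, among them Sox9, Prox1, Nr5a2 and Hnf4a, have intervals inside the dashed lines.

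The factors that were lower include the master genes of pancreas formation. Pdx1, required for the pancreas to form, had 7.61, 8.52, 8.48 and 8.55 in duct cells, against 11.65, 11.63, 11.73 and 11.67 at E11.5 (difference -3.38, SE 0.19). Ptf1a, which specifies pancreatic fate and later drives acinar genes, had 6.44, 6.32, 7.61 and 7.56 in duct cells, against 10.74, 11.05, 10.79 and 11.14 at E11.5 (difference -3.94, SE 0.46). Nkx6-1, a homeodomain factor of progenitors and later of beta cells, had 8.66, 8.39, 8.11 and 8.68 in duct cells, against 11.81, 11.69, 11.53 and 11.68 at E11.5 (difference -3.22, SE 0.18). None of these 3 genes overlapped between the groups, as was so for 72.2% of all genes. Pdx1 and Nkx6-1 were above 100 in duct cells, while Ptf1a straddled that level. Sox11, a factor of immature tissues, went furthest, with 6.40, 5.85, 5.15 and 5.62 in duct cells, against 13.13, 13.24, 13.33 and 13.27 at E11.5. Mnx1, an early dorsal pancreas gene, fell by 5.50, Mycn fell by 4.00, Id3 fell by 3.66 and Gata4 fell by 2.87. Bcl11a, a zinc finger factor, fell by 2.38 (adjusted p = 1.6e-09 in limma), and 4 of its 6 tested probes were called. Foxa2, a pioneer factor of endoderm, fell by 1.11.

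Other factors were bright at both ages. Prox1, a homeobox gene of duct and endocrine precursors, had 12.79, 12.85, 12.70 and 12.38 in duct cells, against 12.34, 12.37, 12.50 and 12.35 at E11.5. Nr5a2, a nuclear receptor of the exocrine pancreas, had 11.94, 12.18, 12.06 and 12.43 in duct cells, against 12.14, 12.21, 12.21 and 12.23 at E11.5. Sox4, a relative of Sox11, had 12.04, 11.98, 11.97 and 11.59 in duct cells, against 11.96, 12.09, 11.66 and 11.74 at E11.5. The groups overlapped in all 3 genes, and the intervals of the difference were -0.28 to 0.86, -0.69 to 0.59 and -0.54 to 0.60. Hnf4a had an interval inside -1 to 1 as well, around 0.08. Sox4 and Sox11, which belong to the same group of Sox genes, therefore parted, with differences of 0.03 and -7.49.

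Some factors were brighter in duct cells. Glis3, a zinc finger gene needed for normal ducts and beta cells, had 12.71, 12.60, 12.83 and 12.65 in duct cells, against 9.53, 9.65, 9.6 and 9.75 at E11.5 (difference 3.07, SE 0.16). Klf5, a zinc finger gene of many adult epithelia, had 11.06, 11.39, 11.40 and 11.01 in duct cells, against 7.93, 8.39, 7.89 and 8.05 at E11.5 (difference 3.15, SE 0.27). Prdm16, a zinc finger regulator, was higher by 1.26 (adjusted p = 6.9e-05 in limma), but by 0.67 as the mean of its probes, which falls short of the threshold. Foxa1, a relative of Foxa2, was higher by 1.55, with 9.09, 9.70, 10 and 7.37 in duct cells and 7.25, 7.47, 7.85 and 7.40 at E11.5, so that duct replicate 4 lay among the progenitors. Onecut1, a factor of early duct and endocrine precursors, had 9.51, 10.47, 9.96 and 9.45 in duct cells, against 10.94, 10.12, 10.73 and 10.93 at E11.5, and its difference of -0.83 was not called. Without duct replicate 2 it was -1.04 and without E11.5 replicate 2 it was -1.02, both past the threshold. Myc, the growth regulator, overlapped widely, with 10.30, 9.34, 9.63 and 8.66 in duct cells and 9.22, 10.24, 10.05 and 10.41 at E11.5 (difference -0.50, adjusted p = 0.29 in limma).

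**Figure D4:**
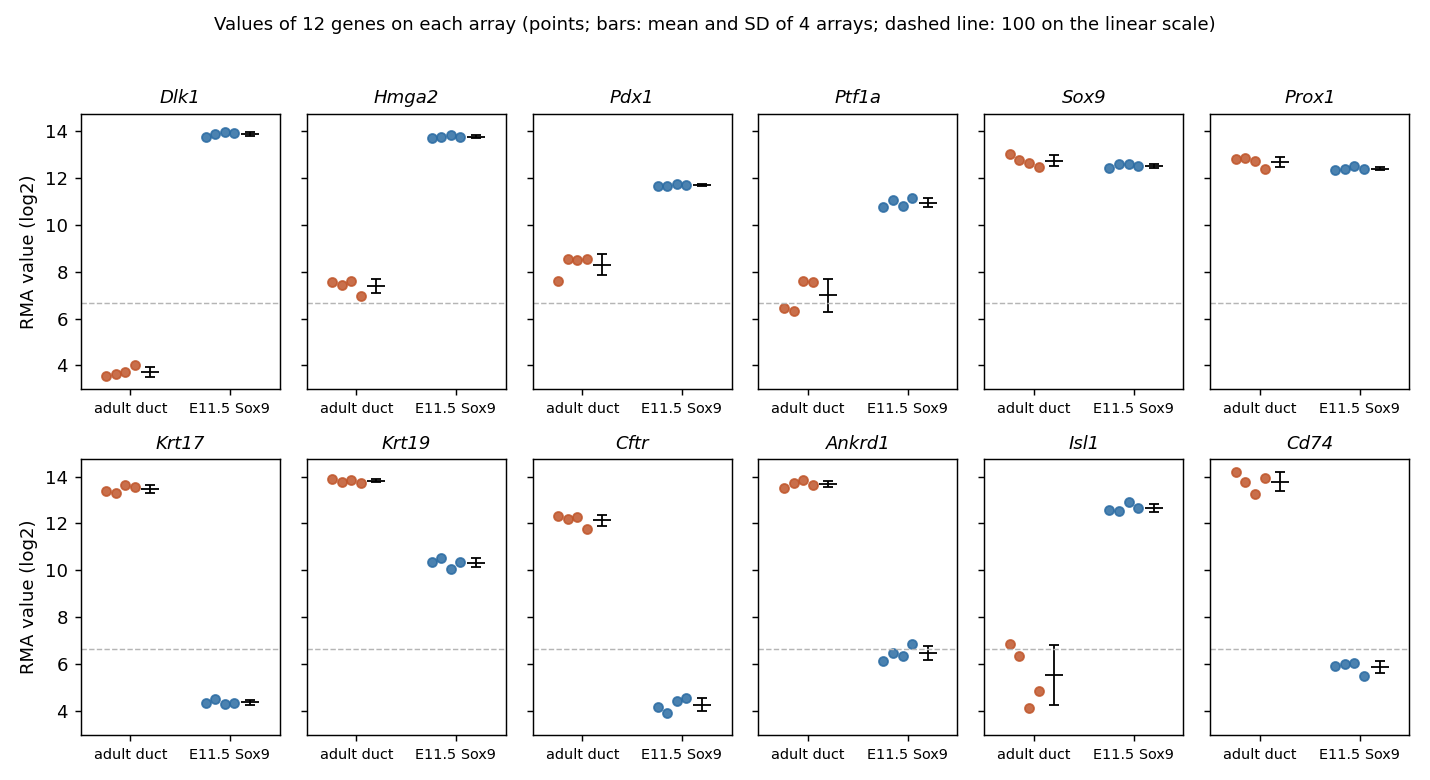
RMA values (log2) of 12 genes on each of the 4 adult duct and 4 E11.5 Sox9 arrays (points), with the mean and SD of each group; the dashed line marks 100 on the linear scale. Dlk1, Hmga2, Pdx1, Ptf1a and Isl1 are lower in duct cells, Krt17, Krt19, Cftr, Ankrd1 and Cd74 are higher, and Sox9 and Prox1 overlap between the groups.

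Fetal growth genes were mostly lower in duct cells. Imprinted growth genes are read from a single parental copy and mostly set fetal size. Of 19 tested, 14 were lower and 2 were higher, with a median difference of -3.62. These are 73.7% and 10.5% of the list, against 24.9% and 17.8% of all genes. Igf2, the fetal insulin-like growth factor, had 6.31, 6.66, 5.88 and 5.73 in duct cells, against 12.86, 12.96, 12.65 and 12.80 at E11.5. Cdkn1c, which encodes the cell cycle inhibitor p57, had 6.71, 6.45, 6.51 and 6.20 in duct cells, against 11.63, 11.55, 11.67 and 11.58 at E11.5. Peg10, a gene derived from a retrotransposon, had 5.80, 5.58, 5.31 and 4.82 in duct cells, against 11.95, 12.37, 13.10 and 12.94 at E11.5. All 3 were near or under 100 in duct cells. Others stayed bright while lower, such as the zinc finger gene Peg3, with means of 12.19 in duct cells and 13.89 at E11.5, and the adaptor gene Grb10, with 12.08 in duct cells and 13.29 at E11.5. Plagl1 was higher by 1.11 (0.87 with no call without E11.5 replicate 1) and Impact by 1.38, but the mean of all probes of Impact gave -0.05.

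The Lin28 genes went the same way. Lin28a blocks the maturation of let-7 microRNAs, which repress Hmga2, Igf2bp1, Igf2bp3 and Trim71. Of 9 genes of this axis 7 were lower in duct cells (77.8%, against 24.9% of all genes) and none was higher (median difference -5.12). Lin28a had 3.98, 4.00, 4.02 and 3.88 in duct cells, against 9.07, 9.32, 9.04 and 8.91 at E11.5. Hmga2, a chromatin protein of embryonic cells, had 7.54, 7.41, 7.61 and 6.98 in duct cells, against 13.70, 13.75, 13.82 and 13.75 at E11.5 (difference -6.37, SE 0.20). Igf2bp3, which binds growth factor mRNAs, had 5.86, 5.34, 6.11 and 6.25 in duct cells, against 12.71, 12.54, 12.64 and 12.61 at E11.5. Igf2bp1 and Trim71 fell by 6.43 and 6.15. Hmga2 alone of these 5 genes was above 100 on every duct array. The remaining listed genes Nr6a1 and E2f5 had intervals inside -1 to 1.

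Most cell division genes were lower. All 29 mitosis genes tested were lower in duct cells by their brightest probes, where 24.9% of all genes were, with a median difference of -3.42. Of 3 tested probes of Cenpa, 2 were called lower and 1 higher. Of 30 DNA replication genes 27 were lower and none was higher, with a median of -2.37, and the others were Mcm4, Pola1 (-0.10) and Pcna (-1.00, just short of the threshold). The mean of the mitosis genes was 8.03, 7.90, 6.92 and 7.33 on the duct arrays, against 11.02, 11.06, 11.01 and 11.09 at E11.5, so the duct arrays spread over more than 1 log2 unit while the progenitor arrays hardly differed. In the other adult sorts it was 7.11 in beta cells and 6.52 in alpha cells. Cdk1, the kinase that drives mitosis, had 8.07, 8.32, 7.28 and 7.47 in duct cells, against 11.77, 11.85, 11.91 and 12.01 at E11.5 (difference -4.10, SE 0.25). Ube2c, a ubiquitin-conjugating enzyme of the anaphase-promoting complex, had 7.25, 7.27, 6.30 and 6.26 in duct cells, against 11.93, 12.27, 12.02 and 12.12 at E11.5. Mki67, the gene of the proliferation antigen Ki-67, had 11.12, 10.43, 9.46 and 10.49 in duct cells, against 12.89, 12.71, 12.57 and 12.59 at E11.5. Duct replicates 1 and 2 had more Cdk1 and Ube2c than replicates 3 and 4. Mki67 stayed well above 100 on all 8 arrays, and its difference was -2.32. Of the replicative helicase, Mcm7 fell by 2.58, with 10.13, 10.73, 10.57 and 10.59 in duct cells and 13.07, 13.10, 13.05 and 13.10 at E11.5. Mcm4 had an interval inside -1 to 1 by its brightest probe, but 1 of its 2 tested probes was called lower.

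The promoters of division genes carry known elements, and they are shown here because the members of this list moved together. In the RefSeq promoters of GRCm38.p6, searched over 250 bases before the start site on both strands, the cell cycle homology region TTTGAA was found in 8 of 24 promoters of mitosis genes (33.3%), against 10.9% of 14863 promoters of genes tested on the array and 16% of all 32851 promoters. The CCAAT box was found in 19 of them (79.2%), against 34.6% of promoters of tested genes and 33.8% of all. It was also found in 55.2% of promoters of DNA replication genes and in 70% of those of the antigen presentation and interferon genes, which were higher in duct cells, so it was not particular to mitosis genes. Both stood together in 8 (33.3%), against 3.89% and 5.55%. In 29 promoters of DNA replication genes an E2F element (TTTGGCGC, TTTCCCGC, TTTCGCGC or TTTGCCGC) was found in 7 (24.1%), against 2.97% of promoters of tested genes and 1.86% of all. A match is a description of letters in a window and not a site in use. The last 150 bases before the start site follow for 3 mitosis genes, with both elements in capitals, and for the replication origin gene Orc1, with the E2F element in capitals, each 5′ to 3′ on the strand of its gene. Cdk1 lies at chr10:69352913-69353062 on the minus strand, Ube2c at chr2:164769779-164769928 on the plus strand, Cdc20 at chr4:118437344-118437493 on the minus strand and Orc1 at chr4:108579304-108579453 on the plus strand. An element on the other strand reads as its reverse complement, ATTGG for the CCAAT box, TTCAAA for the homology region and GCGCGAAA in Orc1.
Cdk1: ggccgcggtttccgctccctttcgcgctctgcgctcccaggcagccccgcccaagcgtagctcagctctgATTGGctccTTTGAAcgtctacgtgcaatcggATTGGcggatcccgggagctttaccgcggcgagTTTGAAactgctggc
Ube2c: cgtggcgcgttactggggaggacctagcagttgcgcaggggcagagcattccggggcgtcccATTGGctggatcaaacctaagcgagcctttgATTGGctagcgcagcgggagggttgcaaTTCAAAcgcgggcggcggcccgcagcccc
Cdc20: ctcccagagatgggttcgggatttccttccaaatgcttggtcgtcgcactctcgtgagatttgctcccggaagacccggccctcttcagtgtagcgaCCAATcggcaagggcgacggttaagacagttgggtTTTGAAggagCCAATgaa
Orc1: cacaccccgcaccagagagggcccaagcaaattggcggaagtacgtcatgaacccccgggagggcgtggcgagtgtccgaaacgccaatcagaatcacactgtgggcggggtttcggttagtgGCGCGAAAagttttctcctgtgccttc

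Cdc20, the activator of the anaphase-promoting complex, had 8.23, 7.75, 6.32 and 7.01 in duct cells, against 11.21, 11.34, 11.29 and 11.43 at E11.5. Orc1, a subunit of the origin recognition complex, had 5.53, 5.40, 5.59 and 5.59 in duct cells, against 8.38, 8.66, 8.73 and 9.05 at E11.5. Orc1 was under 100 on all duct arrays, and neither gene overlapped between the groups, as was so for 72.2% of all genes. The differences were -3.99 (SE 0.31) for Cdc20 and -3.18 (SE 0.23) for Orc1.

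Of 14 entry controls of the cell cycle (D cyclins, their kinases, E2F factors and inhibitors), 4 were lower, 4 were higher and 4 had an interval inside -1 to 1. Each is 28.6% of the list, near the 24.9%, 17.8% and 30% of all genes. Ccnd1 and Ccnd2, the D cyclins that answer growth signals, were alike within 2-fold, with means of 12.60 in duct cells and 12.89 at E11.5 for Ccnd1, and of 12.59 in duct cells and 12.80 at E11.5 for Ccnd2. Their kinase Cdk4 fell by 2.32, with 10.78, 11.08, 11.03 and 11.15 in duct cells, against 13.41, 13.30, 13.27 and 13.33 at E11.5. The related kinase gene Cdk6 was higher by 1.13, but by 0.80 as the mean of its probes. Cdkn2b, which encodes the Cdk4/6 inhibitor p15, had 9.13, 9.15, 9.06 and 9.28 in duct cells, against 6.38, 6.26, 6.31 and 6.25 at E11.5 (difference 2.85, SE 0.19). Cdkn1a, which encodes the inhibitor p21, was higher by 1.65. Inhibitors moved both ways, since Cdkn1c fell by 5.14. The other genes of the list that were lower were E2f1 (-1.88) and E2f2 (-2.11), activators of replication genes.

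Chromatin and ribosome genes were mostly lower. Of 20 chromatin genes 14 were lower (70%, against 24.9% of all genes) and none was higher, against 17.8% (median -1.65). The Polycomb gene Cbx2 fell by 3.59, and Uhrf1, which guides maintenance methylation of DNA, fell by 3.18. The methyltransferase gene Dnmt1 itself was alike within 2-fold by its brightest probe, at means of 12.44 in duct cells and 12.93 at E11.5, and it fell by 1.15 as the mean of its probes. Of 20 genes of ribosome biogenesis 14 were lower (70%, against 24.9% of all genes) and none was higher (median -1.30). Polr1b, a subunit of RNA polymerase I, fell by 2.71, and the RNase P subunit gene Rpp40 fell by 1.32. The abundant nucleolar genes Npm1 and Ncl were alike within 2-fold by their brightest probes. However, 1 of 2 tested probes of Npm1 and 1 of 5 of Ncl were called lower.

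Endocrine genes were lower. All 12 endocrine transcription factor genes tested were lower in duct cells, where 24.9% of all genes were, with a median difference of -5.55. Their mean was 5.46, 5.35, 4.69 and 5.04 on the duct arrays, against 10.48, 10.45, 10.80 and 10.55 at E11.5. Neurog3, which starts the endocrine programme, had 4.02, 3.80, 3.95 and 4.53 in duct cells, against 9.35, 9.19, 9.28 and 9.34 at E11.5. Neurod1, a target of Neurog3, had 5.57, 5.79, 4.55 and 3.80 in duct cells, against 11.57, 11.56, 12.04 and 11.52 at E11.5. Isl1, a factor of all islet cells and of early dorsal mesenchyme, had 6.87, 6.36, 4.13 and 4.85 in duct cells, against 12.56, 12.54, 12.90 and 12.67 at E11.5. Gcg, the glucagon gene and a product of the earliest endocrine cells, had 5.03, 5.60, 5.73 and 4.53 in duct cells, against 13.57, 13.65, 13.84 and 13.68 at E11.5. Endocrine RNA was thus read on every E11.5 array, and Gcg had the largest fall after Dlk1.

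Hormone and granule genes were lower in 15 of 19 and higher in 1 (median -3.70). These are 78.9% and 5.26% of the list, against 24.9% and 17.8% of all genes. Their mean was 7.56, 7.63, 6.92 and 6.52 on the duct arrays, against 10.37, 10.26, 10.48 and 10.23 at E11.5. Some hormones split the duct arrays. Ppy, which encodes pancreatic polypeptide, had 12.23, 11.74, 8.05 and 8.09 in duct cells, against 10.17, 9.52, 10.09 and 9.61 at E11.5. Pyy, which encodes peptide YY, had 12.38, 12.20, 9.17 and 8.47 in duct cells, against 14.12, 14.06, 14.16 and 14.06 at E11.5. Duct replicates 1 and 2 were the higher ones for both genes, and they also had the higher Ins2, at 9.91 and 9.23, where replicates 3 and 4 had 7.84 and 6.66. For Ppy the E11.5 values lay between the pairs of duct arrays, and the difference of 0.18 was not called. Sst, the somatostatin gene, was the exception that was higher in duct cells, with 8.62, 9.58, 8.89 and 8.69 against 7.21, 7.45, 7.29 and 7.59 at E11.5. Sst was 14.22 in the adult beta sort and 13.71 in the adult alpha sort. The part of islet RNA in the Sst difference was not tested.

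Genes of duct secretion were mostly higher. Of 20 ion and water transport genes, 12 rose in duct cells and 1 fell, with a median difference of 1.97. These are 60% and 5% of the list, against 17.8% and 24.9% of all genes. Cftr, the chloride and bicarbonate channel that is defective in cystic fibrosis, had 12.30, 12.19, 12.28 and 11.77 in duct cells, against 4.19, 3.92, 4.42 and 4.58 at E11.5 (difference 7.86, SE 0.29). Slc5a1, a sodium-glucose cotransporter, had 12.12, 12.28, 12.26 and 11.98 in duct cells, against 4.70, 4.67, 4.80 and 4.46 at E11.5 (difference 7.50, SE 0.41). Both genes were dim in all progenitor arrays and bright in all duct arrays. Kcnn4, a calcium-activated potassium channel, had 11.56, 11.58, 11.62 and 11.79 in duct cells, against 6.43, 6.40, 6.27 and 6.54 at E11.5. Car2, which encodes a carbonic anhydrase, had 11.24, 11.92, 11.71 and 11.47 in duct cells, against 6.55, 6.64, 6.14 and 6.51 at E11.5. Sctr, the receptor for the hormone secretin that stimulates bicarbonate flow, had 8.41, 8.47, 9.04 and 8.82 in duct cells, against 5.35, 5.44, 5.41 and 5.14 at E11.5. The water channel gene Aqp5, the potassium channel gene Kcnq1 and the chloride channel gene Ano1 were higher by 4.20, 4.55 and 3.73. Transporters that were present at both ages include Slc4a2 and Slc12a2, with intervals inside -1 to 1, and the gene that fell was Car12, dim in both at a mean of 5.16 in duct cells and 6.38 at E11.5. In adult beta cells Cftr measured 10.96 and Slc5a1 8.80.

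Of 14 mucins, trefoil peptides and secreted defence proteins, 5 were higher and 2 were lower (median 0.87). These are 35.7% and 14.3% of the list, against 17.8% and 24.9% of all genes. Muc1, a mucin of the duct lumen, had 12.23, 12.78, 12.59 and 12.47 in duct cells, against 10.28, 10.12, 9.65 and 10.07 at E11.5 (difference 2.49, SE 0.30), so it was already above 100 in the progenitors. Tff2, a trefoil peptide of mucous glands, had 11.51, 12.30, 13.13 and 13.26 in duct cells, against 6.49, 6.35, 6.31 and 5.93 at E11.5. Lcn2, an iron-scavenging lipocalin of inflamed epithelia, was higher by 8.22, and Pigr, which carries antibodies across epithelia, by 5.99. Tff2 was lowest on duct replicate 1 and highest on replicates 3 and 4, the order of the acinar enzymes, and its level was 10.69 in adult beta cells. Tff3 and Wfdc2 fell by 2.22 and 1.49.

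Keratins moved both ways. Of 12 tested, 6 were higher (50%, against 17.8% of all genes) and 2 were lower (16.7%, against 24.9%), with a median of 1.06. Krt19, the standard duct keratin, had 13.88, 13.78, 13.86 and 13.74 in duct cells, against 10.35, 10.55, 10.06 and 10.38 at E11.5 (difference 3.48, SE 0.53). Krt23 had 11.96, 12.47, 12.48 and 12.52 in duct cells, against 7.21, 7.05, 6.76 and 7.01 at E11.5 (difference 5.35, SE 0.33). Krt80 was higher by 4.10, and Krt8 and Krt18, the pair of simple epithelia, by 1.16 and 1.48 at levels near 14 where a probe may saturate. Krt7, another duct keratin, had 11.77, 12.21, 12.46 and 12.09 in duct cells, against 11.82, 11.64, 11.81 and 11.67 at E11.5, and its interval of 0.11 to 0.68 lay inside 2-fold. Krt10 and Krt20 fell by 2.10 and 1.40, and the call for Krt20 was lost without duct replicate 1 (-1.10).

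Junction genes followed, with 14 of 26 higher (53.8%, against 17.8% of all genes) and 2 lower (7.69%, against 24.9%), at a median of 1.06. Cldn2, a claudin that forms a channel for cations and water, had 10.35, 10.50, 9.5 and 10.31 in duct cells, against 5.27, 4.41, 4.93 and 4.77 at E11.5. Cldn4, a sealing claudin, had 13.26, 13.18, 12.35 and 12.31 in duct cells, against 9.32, 9.62, 9.10 and 9.37 at E11.5. Cldn1, another sealing claudin, ran against them, with 3.94, 4.12, 3.94 and 3.83 in duct cells and 7.49, 7.70, 7.68 and 7.44 at E11.5. Cldn1 and Cldn9 fell by 3.62 and 3.47. The desmosome genes Pkp2, Ppl and Jup were higher by 1.88, 1.92 and 1.65.

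What makes the cells epithelial was shared in part. Of 20 genes of epithelial identity, Sox9 and Prom1 among them, 11 had an interval inside -1 to 1, against 30% of all genes. That count takes only genes with both means above 100. The differences of 16 were positive (median 0.41), and 6 genes were higher (30%, against 17.8% of all genes). Ovol2 was lower (-1.14, and -0.99 with no call without duct replicate 2). The mean of the list was 11.28, 11.45, 11.48 and 11.2 on the duct arrays, against 10.18, 10.35, 10.21 and 10.3 at E11.5. Epcam, an adhesion molecule of simple epithelia, had 12.83, 12.91, 12.91 and 12.61 in duct cells, against 12.61, 12.86, 13.02 and 12.99 at E11.5 (interval -0.37 to 0.26). Cdh1, the gene of E-cadherin, had 13.67, 13.65, 13.53 and 13.58 in duct cells, against 12.99, 13.01, 13.23 and 13.21 at E11.5, a separation of the arrays by a difference of only 0.50. The splicing regulators Esrp1 and Esrp2 and the surface marker gene Cd24a were alike as well. The gains in this list were the epithelial transcription factor genes Ehf, Ovol1 and Elf3, higher by 3.91, 3.47 and 3.12, the hemidesmosome integrin gene Itgb4 (2.93), Tspan8 (4.68) and Ly6d (1.18), which was dim in both and not called without duct replicate 2 (0.94).

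Of 15 genes of cilia and cystic disease, 8 were alike within 2-fold, against 30% of all genes. Another 5 were higher (33.3%, against 17.8% of all genes). The cilia regulator Rfx3 was lower (-1.09, and -0.86 with no call without duct replicate 4), where 24.9% of all genes were. Pkhd1, the gene of autosomal recessive polycystic kidney disease and of a protein on duct cilia, had 12.39, 12.52, 12.81 and 12.21 in duct cells, against 7.53, 7.59, 7.79 and 7.84 at E11.5 (difference 4.79, SE 0.32). Bicc1, whose loss gives cystic kidneys in mice, was higher by 2.65. The transport genes of the cilium, such as Ift88 and Kif3a, were among those alike. S100 proteins and annexins, which bind calcium and membranes, were higher in 15 of 21 with none lower (median 2.59). That is 71.4%, against 17.8% of all genes. Anxa13, an annexin of gut and kidney epithelium, had 11.96, 12.55, 12.73 and 12.43 in duct cells, against 5.19, 5.51, 5.42 and 5.54 at E11.5. Anxa1 and Anxa3, which myeloid cells express too, were higher by 6.69 and 6.22. S100a9, a gene of neutrophils, had 10.25, 12.53, 9.08 and 5.55 in duct cells, against 4.73, 5.23, 4.79 and 5.03 at E11.5, so that duct replicate 4 was close to the progenitors. Its difference of 4.41 was 3.35 without duct replicate 2 and 5.67 without duct replicate 4.

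Of 25 Notch genes 9 were lower (36%, against 24.9% of all genes) and 4 were higher (16%, against 17.8%), with Dlk1 on this list too. The median was -0.51, and the counts as such do not set the list apart. The receptor gene Notch2 had 13.34, 13.38, 13.39 and 13.26 in duct cells, against 12.70, 12.83, 12.65 and 12.74 at E11.5, so that the arrays did not overlap, but the difference of 0.61 was short of the threshold. The ligand genes Dll1 and Dll3 fell by 1.53 and 2.24. Targets went both ways. Nrarp, a target and feedback inhibitor, had 9.44, 9.10, 7.08 and 8.28 in duct cells, against 11.07, 11.08, 10.90 and 11.10 at E11.5 (difference -2.56, SE 0.40). Hes1, the target that holds progenitors undifferentiated, had 10.50, 10.62, 10.54 and 10.09 in duct cells, against 9.01, 9.14, 8.91 and 9.30 at E11.5 (difference 1.35, SE 0.23). Hey2 had 7.55, 7.55, 7.22 and 7.66 in duct cells, against 4.46, 4.90, 4.91 and 4.53 at E11.5, while Hey1 fell by 1.13.

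FGF signals from the mesenchyme drive growth of the early pancreas through Fgfr2. Of 16 FGF genes, 5 were higher (31.2%, against 17.8% of all genes) and 2 were lower (12.5%, against 24.9%), with a median of 0.42. Fgfr3 had 12.12, 12.24, 12.11 and 12.14 in duct cells, against 8.01, 8.14, 7.99 and 7.88 at E11.5 (difference 4.15, SE 0.18), and Fgfr1 was higher by 2.28. Fgfr2 was bright in both, with means of 12.75 in duct cells and 11.84 at E11.5 and no call. The targets Etv4 and Etv5 fell by 1.63 and 1.36, with Etv4 at 6.12, 5.78, 6.51 and 6.39 in duct cells and at 8.26, 7.90, 7.58 and 7.57 at E11.5. Other feedback targets, Dusp6 and Spry2, were alike within 2-fold. Of 13 Hippo genes, 4 were higher (30.8%, against 17.8% of all genes) and 1 was lower (7.69%, against 24.9%), with a median of 0.52. Ankrd1, a target of the effectors Yap1 and Wwtr1, had 13.50, 13.73, 13.84 and 13.64 in duct cells, against 6.16, 6.49, 6.35 and 6.87 at E11.5 (difference 7.21, SE 0.33). Wwtr1 itself was higher by 3.53, while its partner gene Tead2 fell by 2.80, with 9.16, 9.29, 9.14 and 9.42 in duct cells and 12.20, 12.10, 11.87 and 12.05 at E11.5. Yap1 did not pass the threshold, with means of 11.53 in duct cells and 12.08 at E11.5.

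Antigen presentation and interferon genes were higher in 22 of 23 with none lower (median 3.50). That is 95.7%, against 17.8% of all genes. Cd74, the invariant chain of class II molecules, had 14.20, 13.76, 13.24 and 13.95 in duct cells, against 5.92, 6.02, 6.05 and 5.52 at E11.5 (difference 7.91, SE 0.41). Macrophages express class II genes, and the part of their RNA in this difference was not tested. Cd74 measured 14.22 in the adult beta sort against 7.94 in the alpha sort. The class I genes H2-K1, H2-D1 and B2m, used by most adult cells, were higher by 4.12, 4.27 and 1.53. The mean of the list was 10.96, 9.95, 9.65 and 10.30 on the duct arrays, against 6.58, 6.59, 6.52 and 6.58 at E11.5.

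Within this list the interferon-induced genes set duct replicate 1 apart. Ifit1, which binds foreign RNA, had 12.54, 9.26, 9.09 and 9.14 in duct cells, against 4.13, 3.83, 4.17 and 4.06 at E11.5. Mx1, an antiviral GTPase, had 11.70, 7.12, 7.30 and 7.88 in duct cells, against 5.30, 4.67, 5.07 and 5.35 at E11.5. Ifit3 had 12.12, 8.92, 8.83 and 8.83 in duct cells, against 6.16, 6.53, 6.06 and 6.37 at E11.5. Irf7, a regulator of the response, did not share this order, at 7.91, 8.13, 7.78 and 7.99 in duct cells and 6.03 to 6.15 at E11.5. Without duct replicate 1 the difference of Ifit1 was 5.12 in place of 5.96, and its call held. The promoter of Ifit1 is shown as that of 1 of the genes that set this array apart. The interferon-stimulated response element, searched as GAAA, any 2 bases and GAAA on both strands of the same window, was found in 4 of 20 promoters of this list (20.0%), against 2.50% of promoters of tested genes and 2.98% of all. The last 150 bases before its start site, chr19:34640739-34640888 on the plus strand of GRCm38.p6 (RefSeq), follow with the element in capitals, here as its reverse complement, TTTC on either side of 2 bases.
Ifit1: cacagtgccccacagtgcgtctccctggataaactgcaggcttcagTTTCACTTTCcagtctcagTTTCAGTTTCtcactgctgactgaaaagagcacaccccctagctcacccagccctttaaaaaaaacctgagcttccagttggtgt

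Immediate early and stress genes, which dissociation of tissue can induce, were higher in 17 of 20 with none lower (median 3.19). That is 85%, against 17.8% of all genes. Their mean was 13.01, 13.07, 12.95 and 12.87 on the duct arrays, against 9.71, 10.34, 10.08 and 9.90 at E11.5. Ier3, an early response gene, had 13.85, 13.54, 13.71 and 13.63 in duct cells, against 6.69, 6.90, 6.63 and 7.15 at E11.5. Atf3, a stress-induced transcription factor gene, had 13.92, 13.94, 13.89 and 13.81 in duct cells, against 9.47, 11.06, 10.21 and 9.52 at E11.5. Gadd45b was higher by 5.60 and the heat shock gene Hspa1a by 6.33. Fos and Jun were bright in both populations, with means of 13.73 in duct cells and 13.15 at E11.5 for Fos, and neither was called. The digestion differed between the ages, and its part in this list cannot be told apart from that of age.

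**Figure D5:**
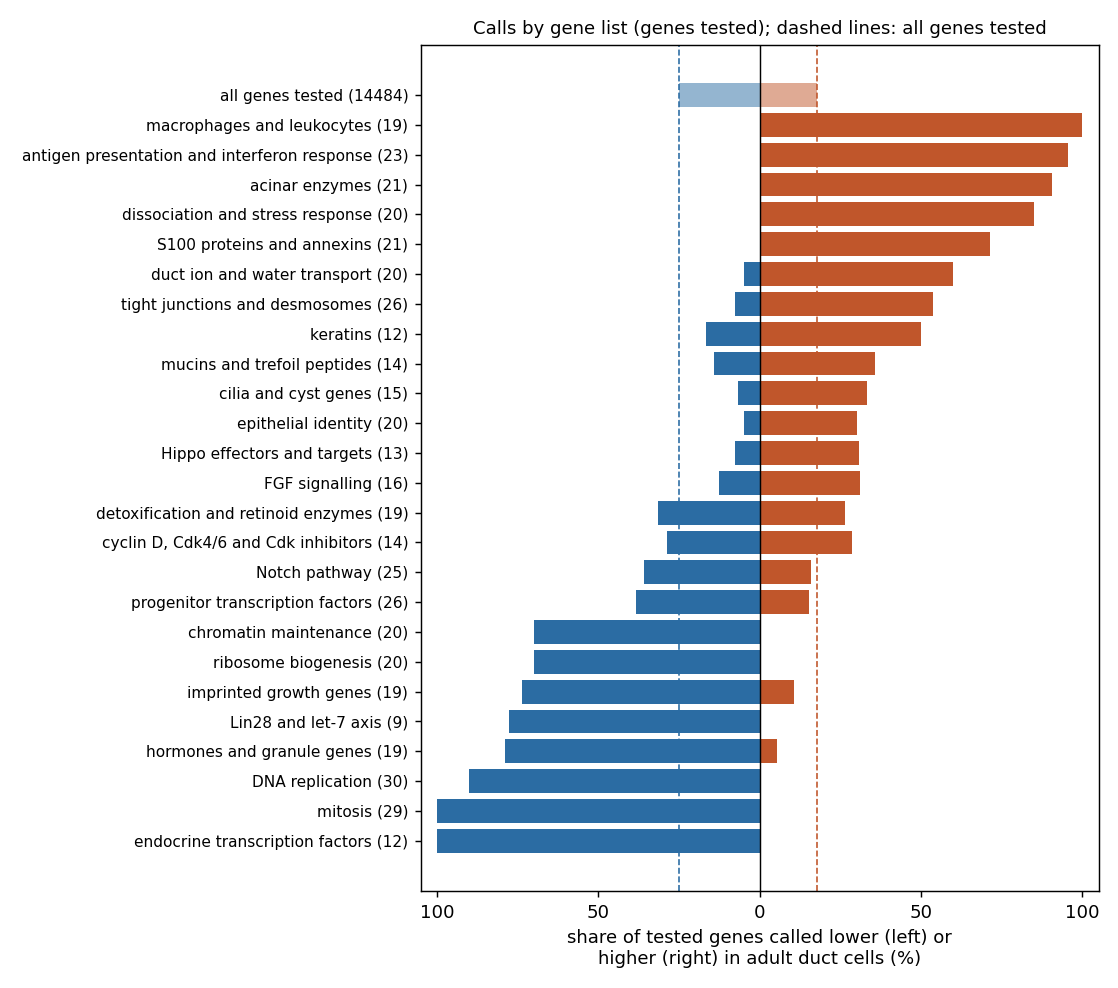
Share of the tested genes of 25 lists that were called higher (right) or lower (left) in adult duct cells than at E11.5 (%), with the number of genes tested in brackets; dashed lines mark 17.8% higher and 24.9% lower among all 14484 genes. All endocrine transcription factor and mitosis genes were lower, and all macrophage markers were higher.

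The largest differences over all genes mix these programmes. Besides genes already given, the 15 largest rises hold the ferroxidase gene Cp (9.31), the chemokine gene Cxcl2 (8.97), the mucosal scavenger gene Dmbt1 (8.95), the inflammatory caspase gene Casp4 (8.80), Wfdc18 (8.73) and the zymogen granule genes Cuzd1 (8.57) and Zg16 (8.55). Casp4 had 12.40, 12.40, 12.50 and 12.48 in duct cells, against 3.31, 3.78, 3.76 and 3.74 at E11.5. The 15 largest falls hold the plasma protein genes Serpina6 (-7.39) and Afp (-6.74), the insulin receptor substrate gene Irs4 (-7.25), the cartilage collagen gene Col2a1 (-7.15), the endocrine factor gene Myt1 (-7.17), the connexin gene Gjd2 (-7.05) and the imprinted gene Zdbf2 (-7.03). Nepn, an extracellular matrix gene, had 5.37, 5.20, 5.26 and 4.82 in duct cells, against 11.87, 11.98, 11.97 and 11.76 at E11.5 (difference -6.73, SE 0.16). Serpina6 was brighter still in E15.5 acinar cells, at 14.10, while Nepn was not above 6.6 on average in any other group.

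To see which genes set either population apart from the whole series, genes were counted whose 4 arrays all exceeded each of the other 44 arrays, a description chosen after the data had been seen. For duct cells these were 854 of 14484 genes (5.90%), of which 207 cleared the next array by at least 1, and for the E11.5 progenitors 335 (2.31%), of which 21 did. Of the 854 genes, 735 were also called higher against E11.5, and of the 335, 261 were called lower in duct cells. Rnd1, which encodes a small GTPase, led for duct cells with 11.78, 11.88, 11.40 and 12.35, a clear 4.67 above any other array, against 4.48 to 4.64 at E11.5. Casp4 and Krt17 followed with gaps of 4.17 and 4.12, then the cytokine gene Il10 (3.61) and Rel (3.45), which are on no list. Listed duct genes included Slc5a1 (2.75), Krt23 (3.27), Ankrd1 (2.46), Krt80 (2.06), Pigr (1.84), Kcnn4 (1.41), Pkhd1 (1.35), Fgfr3 (1.30) and Aqp5 (1.20), with Cftr at 0.45. They also included 9 of 20 stress genes, among them Ier3 (1.96), Gadd45b (1.22) and Atf3 (0.74), and 5 of 23 antigen presentation and interferon genes, among them Irf1 (0.88) and Ifit3 (0.62). No listed acinar enzyme was among them, and of the listed macrophage markers only Cd14 was (2.60). Genes on no list with large gaps included Oasl1 (2.71), the chemokine gene Cxcl3 (2.68), Relb (2.62) and Icam1 (2.46), beside others such as Arid5a (3.19) and Pvr (2.98). For the progenitors Nepn led with a gap of 4.98, then the immunoglobulin superfamily gene Igdcc3 (2.75), Fndc3c1 (2.58) and Lin28a (2.54), with Trim71 (1.06), Etv4 (1.05), Igf2bp1 (0.83), Sox11 (0.27) and Hmga2 (0.19) among the listed genes. Dlk1 was not among them, and its mean of 13.86 at E11.5 stood beside 13.81 in E15.5 beta cells, 13.81 in E17.5 beta cells and 13.93 in P0 beta cells.

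Sex differed in the RNA. Xist, which female cells express from the inactive X chromosome, had 5.41, 5.60, 5.42 and 5.28 in duct cells, against 11.30, 11.73, 11.76 and 12.01 at E11.5. The Y-linked gene Eif2s3y was bright on all 8 arrays, at means of 11.65 in duct cells and 11.23 at E11.5. The Y-linked gene Uty was higher in duct cells, at 8.43 against 6.61. Kdm5d, also Y-linked, was at 9.6 against 8.55 and not called. Both Xist and Eif2s3y were thus bright in the embryo pools. The labels give no sex, while the methods name male mice beside the P15 and adult digests. The part of sex in other differences cannot be told apart from that of age.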

How the data were processed

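RNA was amplified and biotin-labelled with a NuGEN kit and hybridised to Affymetrix whole-genome mouse arrays by the authors, who normalised all arrays together with RMA in R 2.11.1. The deposited values are log2 RMA values of 45101 probes and were used as given. Control probes (64) were left out. GEO's platform annotation gave 34945 probes 1 gene, 932 several and 9160 none, and 34741 symbols were matched by gene ID. Probes above 100 on the linear scale in at least 1 of 48 arrays were tested (32043 probes, 14484 genes). A mean for each of 13 groups was fitted over the 48 arrays with limma 3.58.1 in R 4.3.3 (lmFit, eBayes, 35 residual degrees of freedom), and p-values were adjusted over all tested probes by Benjamini-Hochberg. A call took an adjusted p below 0.05 with a change of 1 or more (log2), and a gene took the values of its probe with the highest mean. Tested on simulated data made from these arrays, the fit recovered 88% of 50 probes changed by 1.5 (log2) and 100% of those changed by 2 or more. There were 4 false calls among 32043 probes. The simulated noise was independent and of the same size in all groups, as the fit assumes. It therefore checks the fit and gives no error rate for the real arrays. Of 627 entries in 32 gene lists 550 were tested, and the others were not analysed here. Genes were named if they were Dlk1 or Krt17, among the 15 largest differences each way, among the largest or most alike of a list, or markers of a sort or cell type. Others were named after their values were seen. The groups, lists and members were chosen with earlier results of these data known.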

Additional observations from a re-analysis of the deposited data

Results flagged for a closer look

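In 206 groups of 4 arrays (71 genes and the means of 32 lists, in duct cells and at E11.5), 11 had a highest or lowest array set apart from its nearest neighbour by a larger part of the range of the group than Dixon's critical value for 4 samples, and chance alone sets apart about 1 in 20 groups. In the duct cells, replicate 1 was highest for Ifit1, an interferon-induced gene, at 12.54 where the nearest array had 9.26. It was lowest for the keratin gene Krt23, at 11.96 (nearest 12.47), and for Pdx1, at 7.61 (nearest 8.48). Duct replicate 4 was lowest for Sox4, at 11.59 (nearest 11.97), and for the mean of the progenitor transcription factors, at 9.26 (nearest 9.58). Duct replicate 2 was highest for the mean of the DNA replication genes, at 8.98 (nearest 8.70).

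Among the E11.5 arrays, replicate 1 was lowest for Casp4, at 3.31 (nearest 3.74), where the gene was dim on all 4. Replicate 3 was highest for Neurod1, at 12.04 (nearest 11.57), lowest for the Notch target Nrarp, at 10.90 (nearest 11.07), and lowest for the mean of the antigen presentation and interferon genes, at 6.52 (nearest 6.58). Replicate 2 was highest for the mean of the erythroid markers, at 6.25 (nearest 4.94). The embryonic globin gene Hba-x had 8.44 on that array and 4.71, 4.63 and 4.67 on the others.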

How the results depend on the processing

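Of 12648 probes called, the count was 10706 to 13203 over the other settings, and 12403 to 12804 when each array was left out in turn. The methods' t-test on the 8 arrays called 12536 probes at the same thresholds, and 22180 by adjusted p alone. Same-numbered duct and E11.5 arrays did not deviate together (r = 0.015, 0.001, 0.035 and -0.13), so the numbers do not pair them, and with the replicate block 12666 probes were called on the 8 arrays against 12661 without it. Normalising the 8 arrays again moved the median difference of all probes to -0.11, against -0.15, and the share of calls that were higher to 46.4%, against 43.6%. Impact reversed to -0.05, not called, with the mean of its probes in place of the brightest, and the cause was not tested. Where a gene had to exceed 100 in at least 4 of the 8 arrays, fewer genes were tested and fewer markers were higher: 0 of the lymphocyte markers in place of 1, 4 of the endothelial markers in place of 10 and 2 of the mesothelial markers in place of 5. Mesenchymal markers that were lower numbered 2, and 1 with the methods' t-test, 4 with the mean of all probes and 1 to 3 with an array left out (1 without duct replicate 3, 3 without duct replicate 2). Of 324 genes picked by rule for naming, 316 to 324 kept their call in each setting that tested them all. That count does not cover every gene in the text, and Neurog3, Ppy, Mki67 and Rnd1, for example, are outside it. Relative brightness limits dim genes, whose differences are not exact.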

Other observations

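Of 19 genes that handle retinoids and toxic compounds, 5 were higher in duct cells (26.3%, against 17.8% of all genes) and 6 were lower (31.6%, against 24.9%), near the shares of all genes, with a median difference of -0.06. Aldh1a1, which makes retinoic acid, had 10.16, 10.73, 10.76 and 10.99 in duct cells, against 5.98, 6.12, 5.85 and 6.08 at E11.5. Aldh1b1, a mitochondrial aldehyde dehydrogenase of pancreatic progenitors, had 9.10, 9.23, 8.07 and 8.94 in duct cells, against 10.85, 10.74, 10.77 and 11.06 at E11.5. Crabp1, which binds retinoic acid in the cytoplasm, had 4.07, 3.88, 4.53 and 4.97 in duct cells, against 9.55, 9.83, 9.05 and 9.27 at E11.5. None of these 3 genes overlapped between the groups, as was so for 72.2% of all genes.

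Of 12 genes of liver proteins, which the neighbouring endoderm also expresses, 4 were lower in duct cells and 1 was higher. These are 33.3% and 8.33% of the list, against 24.9% and 17.8% of all genes. Afp, the fetal counterpart of albumin, had 4.75, 4.76, 4.65 and 4.53 in duct cells, against 11.64, 11.40, 11.41 and 11.22 at E11.5. Alb, the albumin gene, ran the other way, with 11.11, 11.70, 11.99 and 11.69 in duct cells, against 8.63, 7.87, 7.63 and 7.73 at E11.5. Rbp4, the retinol carrier of plasma, fell by 4.20. Ttr, the carrier of thyroid hormone, was alike within 2-fold, with an interval of -0.70 to -0.33.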
